A study of Mus musculus with 10 samples.

Results

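The epithelial alarmin cytokines and their antagonists were studied here as a group of 9 genes, Il33, Tslp, Il1a, Il18, Il1b, Il18bp, Il1rn, Il24 and Il6. They were chosen by name, and all 9 were found in each of the 10 deposited tables, which hold 25814 genes. RNA was sequenced from primary keratinocytes of the tail skin of adult C57/B6 mice and from splenic CD8+ T cells of mice, in 5 groups of 2 libraries. Keratinocytes alone were grown in serum-free medium with low Ca++, and co-cultured keratinocytes were kept together with CD8+ T cells that had been activated by αCD3/CD28 antibodies for 1 d, after which the T cells were washed off. Activated T cells had received these antibodies for 1 d. T cells in keratinocyte medium had been activated in the same way and were then kept without keratinocytes for 1 d more. The paper describes their medium as mainly keratinocyte medium with a smaller part of the T cells' own medium, as in its co-cultures. Co-cultured T cells spent this added day together with keratinocytes. The time together with keratinocytes is 1 d in the labels of the T cells and in the study's methods, but 1 h in the text on the design. T cells were brought into the co-culture in their own medium, and the sources do not say whether keratinocytes alone received it, so that T cells and medium cannot be told apart in this comparison. Activated T cells differ from the other T-cell groups in medium and in time since activation, and the effects of both cannot be told apart. The 2 libraries of a group stem from 2 parallel experiments, and nothing further is said of the animals, so that p-values measure the spread between these libraries only.

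Alarmins are cytokines that barrier cells such as keratinocytes store or make at once, and that alert the immune system when the barrier is damaged. Interleukin-33 and interleukin-1α are released from injured cells and act through receptors of the interleukin-1 family, TSLP acts on dendritic cells and lymphocytes through a receptor made of Crlf2 and Il7r, and interleukin-18 and interleukin-1β are made as precursors that caspase-1 cleaves. Il18bp encodes a secreted protein that binds interleukin-18 and keeps it from its receptor, and Il1rn encodes the antagonist that occupies the receptor of interleukin-1. Il24 encodes a cytokine of the interleukin-20 family that acts on keratinocytes, and Il6 the cytokine that signals through gp130.

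The stretches of 250 bases before the start site are shown for Il18bp, Il33 and Il18, whose levels did not overlap between the keratinocyte groups, and for Il1a, since transcription factors that start these genes can bind there. They were read from RefSeq promoter windows (GRCm38.p6) that 7 of the 9 genes had, and are given 5′ to 3′ on the strand of the gene. Capitals mark matches to the AP-1 motif TGANTCA, and the other motifs searched were GAAANNGAA (the core of an interferon response element), TTCNNNGAA (a gamma-activated site) and GGGNNTTCC (an NF-κB core), on both strands.
Il18bp, chr7:102018233-102018482, minus strand: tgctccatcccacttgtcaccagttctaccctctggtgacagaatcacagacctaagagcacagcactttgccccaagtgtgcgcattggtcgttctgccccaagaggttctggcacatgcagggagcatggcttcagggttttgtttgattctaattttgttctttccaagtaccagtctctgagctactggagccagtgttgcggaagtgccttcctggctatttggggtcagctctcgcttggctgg
Il33, chr19:29924863-29925112, plus strand: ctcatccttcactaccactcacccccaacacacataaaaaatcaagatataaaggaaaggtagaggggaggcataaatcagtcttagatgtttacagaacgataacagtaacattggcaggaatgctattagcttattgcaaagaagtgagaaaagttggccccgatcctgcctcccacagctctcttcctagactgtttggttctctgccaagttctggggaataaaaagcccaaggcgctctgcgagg
Il18, chr9:50554450-50554699, plus strand: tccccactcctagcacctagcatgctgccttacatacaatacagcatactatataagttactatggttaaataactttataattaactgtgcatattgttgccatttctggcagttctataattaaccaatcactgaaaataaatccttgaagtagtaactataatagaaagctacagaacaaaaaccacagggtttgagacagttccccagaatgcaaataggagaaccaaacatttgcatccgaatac
Il1a, chr2:129309973-129310222, minus strand: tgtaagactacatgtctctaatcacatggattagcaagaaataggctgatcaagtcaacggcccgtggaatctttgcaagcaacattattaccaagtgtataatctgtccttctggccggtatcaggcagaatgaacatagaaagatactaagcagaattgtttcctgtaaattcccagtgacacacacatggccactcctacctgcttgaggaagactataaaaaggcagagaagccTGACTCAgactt

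In the window of Il1a the match to AP-1 lies 12 to 6 bases before the start, and the windows of Il18bp, Il33 and Il18 hold none of the 4 motifs. Il1rn holds an AP-1 match 141 to 135 bases and Il6 one 249 to 243 bases before the start. The NF-κB pattern has a fixed spacing, so that stretches with more bases between its ends were not searched. The window of Il6 holds such a stretch, gggattttcc. Of all 32851 windows, 6.75% hold the AP-1 motif, 7.13% the interferon response element core, 7.02% the gamma-activated site and 4.98% the NF-κB core. A match of letters is a description and does not show that a factor binds, and a motif that is not found here may lie outside the window. The window of Il18bp precedes a RefSeq start that lies inside the gene as annotated for the counts (102014885 to 102018690, minus strand). The bases before the outer end of that annotation were not searched. Il33 and Il1rn have further start sites in RefSeq, none of whose windows holds a match.

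Between 12864931 and 18019609 reads were counted on exons per library. Levels are given as RPKM, exon reads that the authors scaled to the length of the exons and to the mapped reads of the library, and 3 reads, the most that a count of 0 allows, correspond to 0.0522 to 0.206 RPKM for these genes, depending on library and length (counting error only). All 8 keratinocyte markers of the list used, such as Krt5 and Krt14, were found in keratinocytes alone, with summed levels of 10990 to 11806 RPKM, against 3.61 to 7.06 RPKM in activated T cells and T cells in keratinocyte medium. Co-cultured T cells held 23.1 and 75.2 RPKM of these markers. The keratinocyte libraries held T-cell RNA in both groups. The summed level of 8 T-cell markers was 110 and 434 RPKM in keratinocytes alone and 142 and 778 RPKM in co-cultured keratinocytes, compared with 1198 to 2771 RPKM in the T-cell libraries. Cd3e was at 9.42% to 57.9% of its mean in co-cultured T cells, whereas the CD8 gene Cd8a was at 0.0452% to 0.446%. Cd4, also of this list, ranged from 11.4 to 84.5 RPKM in the keratinocyte libraries and from 16.8 to 102 RPKM in the T-cell libraries. The part of this RNA in the results was not tested, but the highest level of a gene in any T-cell library is given where it bears on a result. Such a level is that of CD8+ T cells. It gives no limit for cells with Cd3e but little Cd8a RNA, which were not sequenced apart. Summed levels of 8 markers of macrophages and monocytes were 55.7 to 95.6 RPKM in keratinocytes alone and 46.7 to 112 RPKM in co-cultured keratinocytes, and 7 or 8 of the 8 were above the limit of 3 reads. Of 6 markers of dendritic and Langerhans cells 4 or 5 were above that limit in the keratinocyte libraries, with summed levels of 11.6 to 45.6 RPKM alone and 19.0 to 80.4 RPKM after co-culture, mostly from Cd74, H2-Aa and H2-Ab1, while Cd207 of Langerhans cells was listed at 0 in all libraries. In such bulk samples fewer cells of a type and less RNA per cell cannot be told apart.

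**Figure D1:**
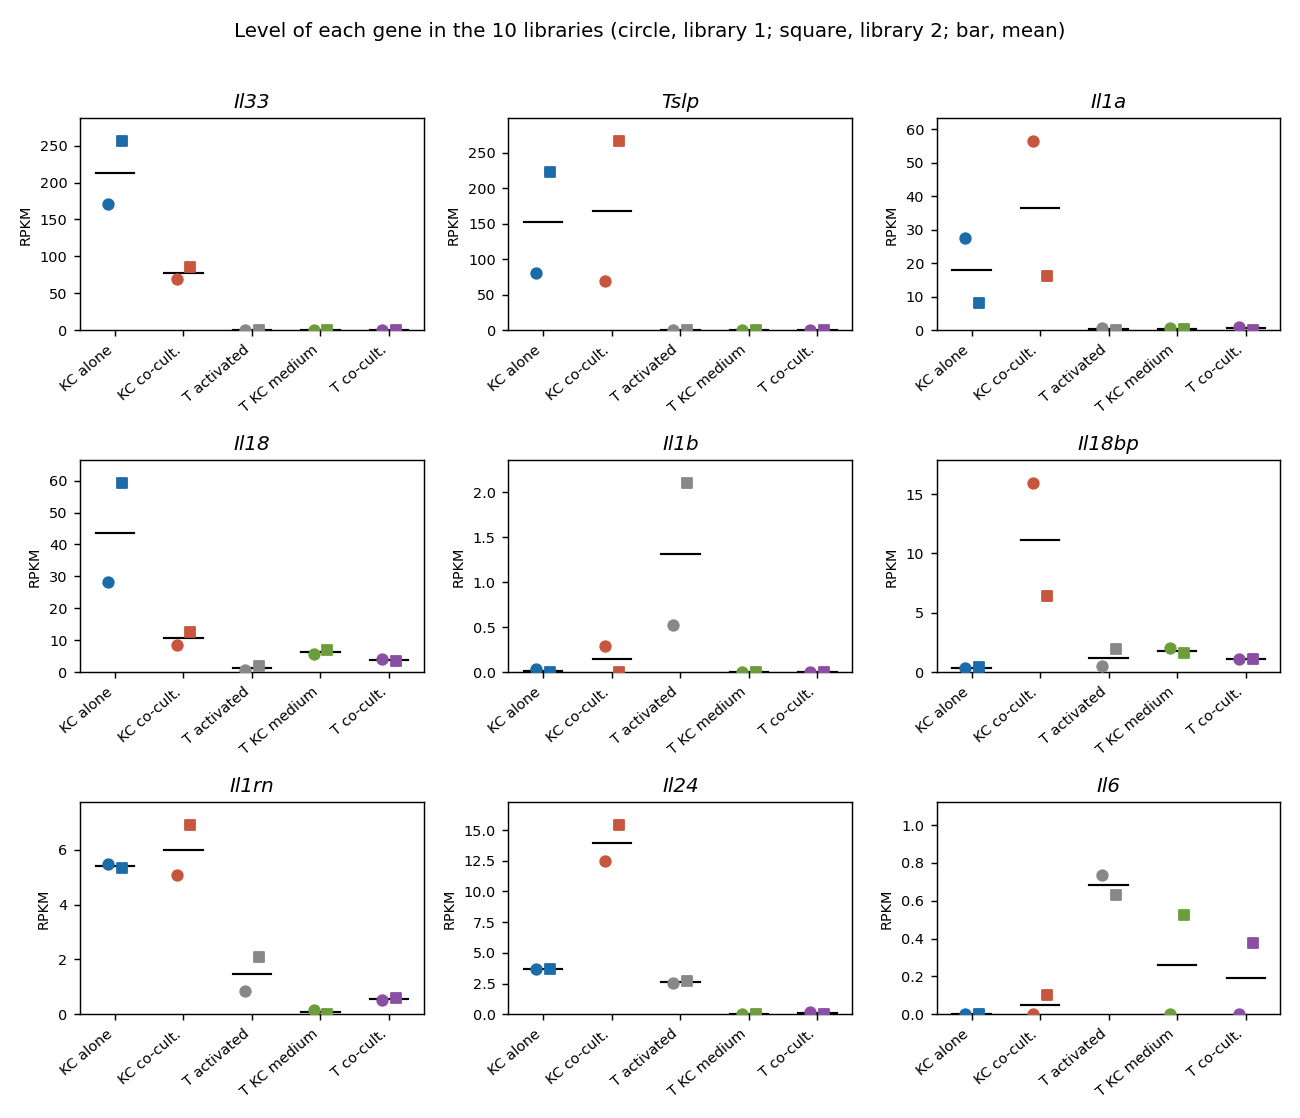
RPKM of each of the 9 genes (vertical axes, each from 0 with its own scale) in the 5 groups, keratinocytes (KC) and T cells, 1 panel per gene. Circles and squares are the libraries 1 and 2 of a group and bars their mean. Il33 and Il18 are lower and Il18bp and Il24 higher in both libraries of co-cultured keratinocytes than in both libraries of keratinocytes alone, while Tslp, Il1a and Il1rn overlap.

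The first question was which of these genes differ between co-cultured keratinocytes and keratinocytes alone. Il18bp and Il24 were higher and Il18 and Il33 lower in both co-cultured libraries, and the ranges of Tslp, Il1a and Il1rn overlapped. Il1b and Il6 were hardly detected. With 7 genes left after low counts were filtered out, 0 were called at an adjusted p under 0.05 by edgeR's quasi-likelihood test, as were 0.0% of all 12515 genes tested. At an unadjusted p under 0.05, 4 of the 7 passed (Il18bp, Il24, Il18 and Il33), compared with 901 genes or 7.2% of those tested. DESeq2 called 2 of them, Il18bp and Il24, both higher, at an adjusted p under 0.05, compared with 1.52% of all genes. Groups did not overlap in the upward direction for 18.3% of all genes with more than 3 reads in any keratinocyte library and in the downward direction for 23.4%, so that 2 and 2 of the 9 are close to that background by count. The smallest two-sided p that an exact permutation test can give for 2 libraries against 2 is 0.333. For these 7 genes the log2 fold change had a median of 0.24, and for all genes tested one of 0.02.

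**Figure D2:**
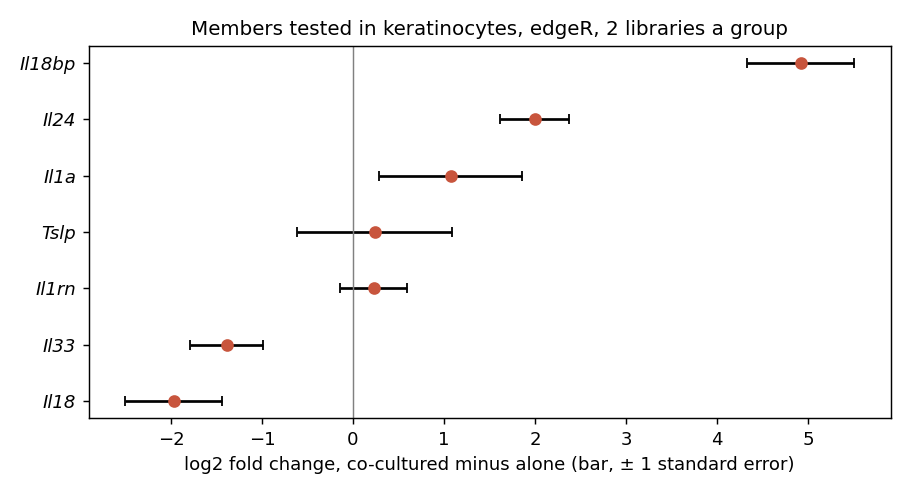
Log2 fold change between co-cultured keratinocytes and keratinocytes alone (horizontal axis) of the 7 genes tested, from edgeR with 2 libraries a group. Points are estimates and bars 1 standard error. Il18bp lies farthest to the right at 4.92 and Il18 farthest to the left at -1.97, and the bars of Tslp and Il1rn span 0.

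Among the alarmins that damaged epithelium releases, Il33 had the highest mean level in keratinocytes alone. The gene lies on chromosome 19 at 29925114 to 29960718 of GRCm38. Keratinocytes alone held 171 and 256 RPKM of it, and co-cultured keratinocytes 68.9 and 86.1 RPKM. Both co-cultured libraries were thus below both libraries of keratinocytes alone, and the mean was 2.75-fold lower (213 ± 60.4 against 77.5 ± 12.2 RPKM, SD, n = 2). The log2 fold change was -1.39 with a standard error of 0.40, an unadjusted p of 0.0184 and an adjusted p of 0.658 by edgeR's test. It was -1.03 without replicate 2 and -1.68 without replicate 1 of keratinocytes alone. No T-cell library exceeded 0.432 RPKM of Il33. Reads across exon junctions summed to 4040 in keratinocytes alone and to 1365 in the co-culture.

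The range of Tslp overlapped that of Il33 in either keratinocyte group, and its level varied more between the libraries of a group than between the groups. Keratinocytes alone held 80.4 and 224 RPKM, co-cultured keratinocytes 68.8 and 267 RPKM. In either group the library numbered 2 was the higher one. The means were 152 ± 101 and 168 ± 140 RPKM (SD, n = 2), and the log2 fold change of 0.24 was smaller than its standard error of 0.85 (adjusted p = 0.924, edgeR). It was negative without replicate 1 of keratinocytes alone (-0.35) and without replicate 2 of co-cultured keratinocytes (-1.16). The paper had listed Tslp as induced in these keratinocytes, whereas the ranges of the groups overlapped here. The ratio of Il33 to Tslp was 2.12 and 1.14 in keratinocytes alone and 1.00 and 0.323 in co-cultured keratinocytes.

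Il1a, whose product is active without cleavage by caspase-1, lies on chromosome 2 at 129299610 to 129309972, 54597 bases from Il1b. In keratinocytes alone 27.6 and 8.30 RPKM were measured, in co-cultured keratinocytes 56.5 and 16.3 RPKM. The groups overlapped, the mean was 2.03-fold higher in the co-culture, and the log2 fold change was 1.07 with a standard error of 0.78 (adjusted p = 0.686, edgeR). It was 0.01 without replicate 1 of co-cultured keratinocytes, 0.44 without replicate 2 of keratinocytes alone and 2.13 without their replicate 1. Here the library numbered 1 was the higher one in either group, the opposite of Tslp. Exon reads of Il1a went along with few reads on introns, 121 beside 1313 exon reads in keratinocytes alone and 34 beside 2226 in the co-culture.

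Il18 and its antagonist Il18bp differed in opposite directions. Il18 lies on chromosome 9 at 50554827 to 50581840. Its level was 28.2 and 59.2 RPKM in keratinocytes alone, and 8.49 and 12.7 RPKM after co-culture. Both co-cultured libraries were lower, the mean was 4.12-fold lower, and the log2 fold change was -1.97 with a standard error of 0.53 (unadjusted p = 0.0146, adjusted p = 0.658, edgeR). It was -1.29 without replicate 2 and -2.43 without replicate 1 of keratinocytes alone. T-cell libraries held up to 6.86 RPKM of Il18, against 8.49 RPKM in the lower of the co-cultured keratinocyte libraries. Il18 overlaps the start of Bco2 by 355 bases and the whole of Tex12, both on the other strand, and the part of their reads in its counts was not tested. Reads across exon junctions of Il18 numbered 188 and 279 in keratinocytes alone and 35 and 64 in the co-culture.

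Il18bp, on chromosome 7 at 102014885 to 102018690, showed the largest difference of the 9 genes in keratinocytes. It was low in keratinocytes alone, at 0.348 and 0.408 RPKM (20 and 21 exon reads), and reached 15.9 and 6.41 RPKM (732 and 320 exon reads) in co-cultured keratinocytes. Both co-cultured libraries were far above both others, and the mean was 29.5-fold higher. The paper had already listed Il18bp as induced in these keratinocytes. The log2 fold change was 4.92 with a standard error of 0.59, an unadjusted p of 0.000428 and an adjusted p of 0.434 by edgeR, and an adjusted p of 1.28e-11 by DESeq2. Over the 14 alternatives the adjusted p ranged from 1.28e-11 to 1, with 5 calls, and the log2 fold change from 3.02 to 5.37. No T-cell library exceeded 2.01 RPKM of Il18bp, which is less than either co-cultured keratinocyte library. The gene overlaps Numa1 by 80 bases, and reads across its exon junctions were 2 and 0 in keratinocytes alone and 176 and 82 in the co-culture.

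Set side by side, Il18 outnumbered Il18bp on the RPKM scale by 80.9 and 145 to 1 in keratinocytes alone. In co-cultured keratinocytes the ratio was 0.533 and 1.98. The 2 groups are thus set apart by more than an order of magnitude, while the T-cell libraries ranged from 0.932 to 4.21. These ratios are levels of RNA, and the proteins were not measured here.

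**Figure D3:**
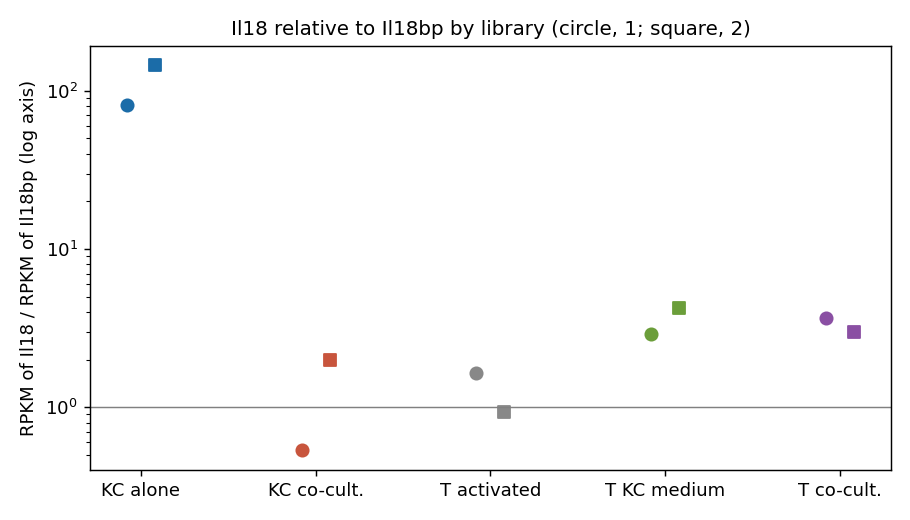
RPKM of Il18 divided by RPKM of Il18bp (vertical log axis) in each of the 10 libraries by group, keratinocytes (KC) and T cells. Circles and squares are the libraries 1 and 2 of a group, and the grey line marks a ratio of 1. Keratinocytes alone lie at 80.9 and 145, co-cultured keratinocytes at 0.533 and 1.98.

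Il1b, the second cytokine that depends on caspase-1, was listed at 1 and 0 exon reads in keratinocytes alone and at 6 and 0 in co-cultured keratinocytes. No difference was detectable at this depth, and the gene did not pass the filter. Il1rn, the antagonist of interleukin-1, measured 5.49 and 5.34 RPKM without T cells and 5.08 and 6.90 RPKM with them. The groups overlapped, and the log2 fold change was 0.23 with a standard error of 0.37 (adjusted p = 0.818, edgeR). The ratio of Il1a to Il1rn was 5.03 and 1.55 in keratinocytes alone and 11.1 and 2.36 in the co-culture, again with overlap.

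Il24, on chromosome 1 at 130882074 to 130887454, had 3.69 RPKM in both libraries of keratinocytes alone, and 12.5 and 15.4 RPKM in those of co-cultured keratinocytes. Both co-cultured libraries were higher, and the mean was 3.78-fold higher. The log2 fold change was 2.00 with a standard error of 0.38, an unadjusted p of 0.00348, an adjusted p of 0.658 by edgeR and of 0.01 by DESeq2. Over the alternatives the adjusted p ranged from 0.01 to 1, with 3 calls of 14. No T-cell library exceeded 2.70 RPKM. Il6 was listed at 0 in both libraries of keratinocytes alone, where 3 reads correspond to 0.0651 and 0.0726 RPKM, and at 0 and 4 exon reads in the co-culture.

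The order of the levels differed between the groups. In keratinocytes alone it ran from Il33 over Tslp, Il18, Il1a, Il1rn and Il24 to Il18bp, and of these neighbours Il33 and Tslp had overlapping ranges. In co-cultured keratinocytes it ran from Tslp over Il33, Il1a, Il24, Il18bp and Il18 to Il1rn. Here the ranges of Tslp and Il33, of Il24 and Il18bp, and of Il18bp and Il18 overlapped.

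Most markers of the keratinocyte list were lower in the co-culture as well. Krt1, a keratin of cells that leave the basal layer, and Ivl, which encodes the envelope protein involucrin, had log2 fold changes of -3.04 and -4.15 and adjusted p-values by DESeq2 of 0.00103 and 4.75e-08 (by edgeR 0.658 and 0.478). Krt10, a keratin of the same cells as Krt1, had a log2 fold change of -1.60 with a standard error of 1.69. Of the basal markers, Col17a1, Itga6 and Trp63 were lower in both co-cultured libraries than in both others, with -1.45 ± 0.80, -0.59 ± 0.31 and -0.55 ± 0.29 (standard error), while Krt5 and Krt14 had 0.46 ± 0.43 and 0.39 ± 0.53. None of these 6 was called by edgeR or DESeq2. Groups did not overlap in the downward direction for 23.4% of all genes. The part of the differences in keratinocyte markers in the lower levels of Il33 and Il18 was not tested.

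T cells held most of these genes at low levels. In activated T cells Il24 had the highest mean, with 2.53 and 2.70 RPKM. Il1rn was at 0.835 and 2.08 RPKM and Il18 at 0.808 and 1.82 RPKM. The ranges of Il1rn, Il18, Il1b (0.526 and 2.10 RPKM) and Il18bp (0.491 and 1.95 RPKM) overlapped, and Il6 was at 0.735 and 0.629 RPKM. Il33 and Tslp were listed at 0 in both libraries. After 1 further day in keratinocyte medium, Il18 was at 5.84 and 6.86 RPKM, above both activated libraries, with a log2 fold change of 2.41 and a standard error of 0.71 (adjusted p = 0.082, edgeR). Its mean was 4.84-fold higher. Il24 was listed at 0 in both of these libraries, so that it was at least 19.7-fold lower than in activated T cells (against 3 reads per library, adjusted p = 0.0632, edgeR). Il1b was also at 0 in both and at least 9.67-fold lower (adjusted p = 0.123). Il1rn was at 0.167 and 0 RPKM (adjusted p = 0.135).

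For T cells in keratinocyte medium against activated T cells, edgeR called 0 of the 8 genes tested, compared with 6.54% of the 11863 genes. At an unadjusted p under 0.05, 4 of the 8 passed (Il18 higher, and Il24, Il1b and Il1rn lower), compared with 25.0% of all genes. DESeq2 called Il18, Il24 and Il1rn (adjusted p = 0.0157, 0.0026 and 0.0288), compared with 16.7%. The groups of 5 genes did not overlap (Il18 higher and Il1b, Il1rn, Il6 and Il24 lower), against a background of 50.7% of all genes.

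For co-cultured T cells against activated T cells, which share the activated libraries with the comparison before, edgeR again called 0 of 8 genes, compared with 10.3% of all genes. At an unadjusted p under 0.05, 4 of 8 passed (Il18, Il24, Il33 and Il1b), compared with 28.8%. DESeq2 called only Il24 (adjusted p = 0.049), compared with 20.4%. Il24 was at 0.189 and 0 RPKM in co-cultured T cells, Il18 at 4.08 and 3.43 RPKM and Il1b at 0 in both, at least 8.70-fold lower than in activated T cells. The groups of 7 of the 9 genes did not overlap in this comparison (Tslp, Il33 and Il18 higher, and Il1b, Il1rn, Il6 and Il24 lower), against a background of 52.6%.

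When co-cultured T cells were set against those in keratinocyte medium, edgeR called 0 of the 8 genes, compared with 0.261% of all genes, and 0 of 8 passed at an unadjusted p under 0.05, compared with 3.45%. DESeq2 called 0 of them and 0.733% of all genes. Il18 was at 5.84 and 6.86 RPKM without and at 4.08 and 3.43 RPKM with keratinocytes (log2 fold change -0.72, standard error 0.67). Il18bp was at 2.01 and 1.63 RPKM without and at 1.11 and 1.14 RPKM with keratinocytes (log2 fold change -0.63, standard error 0.76).

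Low levels of the alarmins were found in co-cultured T cells, whose libraries also held keratinocyte RNA. In the 2 libraries Krt14 was at 0.623% and 0.17% of its mean in co-cultured keratinocytes. On the same scale Il33 was at 0.558% and 0.284% and Tslp at 0.207% and 0.67%, whereas Il18 was at 38.5% and 32.4% and Il18bp at 9.91% and 10.3%. In replicate 2 of T cells in keratinocyte medium Krt14 was at 0.0107%, Il33 at 0.492% (19 exon reads) and Tslp at 0.183% (6 exon reads). In co-cultured T cells the shares rest on 19 and 9 exon reads of Il33 and on 6 and 18 of Tslp. The part of keratinocyte RNA in these shares was not tested. Of the reads of Il1a in T cells many lay on introns, 43 beside 26 exon reads in keratinocyte medium and 34 beside 34 in co-culture. The gene overlaps Gm14023 on the other strand over 8217 bases in GENCODE vM21, and without strand the reads of both cannot be told apart.

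The next question was where the genes are transcribed most. Against activated T cells, keratinocytes alone had 4 of the 9 genes called higher by edgeR and 0 lower (Il33, Tslp, Il18 and Il1a, adjusted p = 0.000611, 0.00137, 0.000795 and 0.0087), compared with 22.5% of 13394 genes called higher. The mean of Il33 was at least 3184-fold and that of Tslp at least 891-fold above activated T cells, in which 3 reads per library served as the limit. Il18 had a log2 fold change of 5.19 with a standard error of 0.66 and Il1a one of 6.09 with a standard error of 1.34. Il1rn, Il24 and Il18bp did not pass, with log2 fold changes of 2.02 ± 0.86, 0.64 ± 0.73 and -1.57 ± 0.71 (standard error).

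Between co-cultured keratinocytes and co-cultured T cells, 6 genes were called higher in keratinocytes (Il33, Tslp, Il24, Il1a, Il18bp and Il1rn), compared with 17.0% of all genes. The alarmins had the larger log2 fold changes, with 7.85 ± 1.13 for Il33, 7.77 ± 1.27 for Tslp and 5.94 ± 1.31 for Il1a (standard error), and Il24 had 7.09 ± 1.01. The antagonists Il18bp and Il1rn had 3.19 ± 0.72 and 3.33 ± 0.92. Their adjusted p-values by edgeR ranged from 0.00277 to 0.0309. Il18 did not pass, with 1.45 ± 0.56 and an adjusted p of 0.0947. Without replicate 2 of co-cultured T cells 3 of the 6 calls remained, those of Il33, Tslp and Il24.

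Whether co-culture went along with different changes in the 2 cell types was tested as an interaction over 8 libraries. Here the effect is co-cultured minus alone in keratinocytes, less co-cultured minus keratinocyte medium in T cells. In the keratinocyte part, T cells and their medium cannot be told apart, as said above. Il18bp was called, with a difference of 5.52 on the log2 scale, a standard error of 0.71 and an adjusted p of 0.0239 by edgeR (6.46e-09 by DESeq2). It was the only one of the 8 genes tested, compared with 0.053% of 13202 genes called in this direction. The call was lost, with adjusted p-values of 0.0811 to 0.13, when either library of keratinocytes alone or any of the 4 T-cell libraries was left out, and it held without either library of co-cultured keratinocytes. The interaction was -1.25 ± 0.70 for Il18 and -2.12 ± 1.38 for Il33 (standard error), and neither passed.

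The receptors of these cytokines were tested as a list of 14 genes in keratinocytes. Of the 13 tested, 0 were called and 0 passed at an unadjusted p under 0.05, and DESeq2 called 0, with a median log2 fold change of 0.00. Il18r1, a chain of the receptor of interleukin-18, ranged from 4.14 to 12.6 RPKM in keratinocytes and from 2.26 to 10.2 RPKM in T cells. Crlf2, a chain of the receptor of TSLP, ranged from 10.01 to 30.9 RPKM in keratinocytes and from 16.04 to 38.3 RPKM in T cells. Il7r, its other chain and also a gene of T cells, ranged from 5.80 to 39.0 RPKM and from 11.96 to 87.0 RPKM. In the keratinocyte libraries Crlf2, Il7r and Il18r1 were, like the T-cell markers, higher in replicate 2 of either group.

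Of 12 genes that signal below receptors of the interleukin-1 family, 0 were called by edgeR or DESeq2, with a median of 0.08. At an unadjusted p under 0.05, 1 passed, compared with 7.2% of all genes. This was Nfkbia, the inhibitor of NF-κB that NF-κB itself induces, with a log2 fold change of 1.28, a standard error of 0.35 and an adjusted p of 0.658 by edgeR. Of 10 genes of the processing and release of these cytokines 7 were tested, and 0 were called by either tool. At an unadjusted p under 0.05, 2 passed, compared with 7.2% of all genes. These were Casp1, which cleaves the precursors of interleukin-18 and interleukin-1β (log2 fold change 1.46, standard error 0.54), and Casp4, the caspase that senses lipopolysaccharide inside cells (1.57, standard error 0.47). Casp1 was at 5.74 and 13.4 RPKM without T cells and at 21.1 and 29.1 RPKM after co-culture, so that its groups did not overlap. The same held in this direction for 18.3% of all genes. Within either group the library with the higher Casp1 was also that with the higher Il18. This was replicate 2, which also held more RNA of T-cell markers. Their summed level was 434 against 110 RPKM alone and 778 against 142 RPKM after co-culture. A link between Casp1 and Il18 was not tested. T-cell libraries held up to 15.0 RPKM of Casp1. The paper had already listed Casp1 as induced in these keratinocytes.

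Of 5 other ligands of the interleukin-1 family 4 were tested in keratinocytes. None was called by edgeR or DESeq2. At an unadjusted p under 0.05, 2 of 4 passed, both lower, compared with 7.2% of all genes. Il1f9, which encodes interleukin-36γ, measured 16.8 and 23.5 RPKM in keratinocytes alone, and 8.06 and 4.08 RPKM in the co-culture (log2 fold change -1.69, standard error 0.45). Il1f8, which encodes interleukin-36β, was at 0.693 and 1.93 against 0.0541 and 0.0996 RPKM. In T cells, Il1f9 was listed at 0 in all libraries of activated cells and of cells in keratinocyte medium, and at 4.10 and 3.13 RPKM (103 and 73 exon reads) in co-cultured T cells. Il1f5, the antagonist of the interleukin-36 receptor, was listed at 0 in the same libraries and at 1.16 and 1.13 RPKM in co-cultured T cells. Both were called higher in co-cultured than in activated T cells (adjusted p = 0.0201 and 0.0435, edgeR), and both had a called negative interaction between the cell types (adjusted p = 0.0115 and 0.0287), compared with 0.523% of all genes. The levels of Il1f9 in co-cultured T cells and in co-cultured keratinocytes overlapped, while Krt14 reached at most 0.623% of its level in the latter. Keratinocyte markers differed in this respect. Between co-cultured keratinocytes and co-cultured T cells the log2 fold change was 9.99 for Krt5 and 8.01 for Krt14, but 3.08 for Krt1 and 2.39 for Ivl. The latter 2 reached at most 0.144 and 0.205 RPKM in T-cell libraries. The part of keratinocyte RNA in the levels of Il1f9 and Il1f5 was not tested.

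Of 8 other ligands of the interleukin-6 and interleukin-20 families 4 were tested in keratinocytes, 0 were called by either tool and 0 passed at an unadjusted p under 0.05. In T cells, Lif, a cytokine that signals through gp130, fell from 14.4 and 9.08 RPKM in activated cells to 0.447 and 0.544 RPKM in keratinocyte medium (log2 fold change -4.40, standard error 0.47, adjusted p = 0.0105, edgeR). Osm, oncostatin M, fell in co-cultured T cells (log2 fold change -2.28, adjusted p = 0.0289).

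Il18bp is known as a gene that interferon-γ induces, and 5 genes of the response to interferon-γ were set beside it. Of these, 0 were called by edgeR in keratinocytes. At an unadjusted p under 0.05 by edgeR, 4 passed (Irf1, Gbp2, Cxcl9 and Cxcl10), compared with 7.2% of all genes. DESeq2 called the same 4, all higher, compared with 1.52%. The paper had listed these 4 as induced in the same keratinocytes, so that their rise was known when the list was made. Of the members studied here it had listed Il18bp and Tslp as well, so that the rise of Il18bp was also known. The median log2 fold change of the list was 3.83. Gbp2, a guanylate binding protein, measured 2.74 and 6.47 RPKM in keratinocytes alone, and 579 and 203 RPKM in the co-culture. Irf1, a transcription factor of this response, measured 3.19 and 5.72 RPKM, and 58.3 and 62.3 RPKM. T-cell libraries held up to 246 RPKM of Gbp2 and 70.5 RPKM of Irf1, and the part of T-cell RNA in these levels was not tested. In the co-culture the library with the higher Gbp2 was that with the higher Il18bp, whereas Irf1 was higher in the other library.

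**Figure D4:**
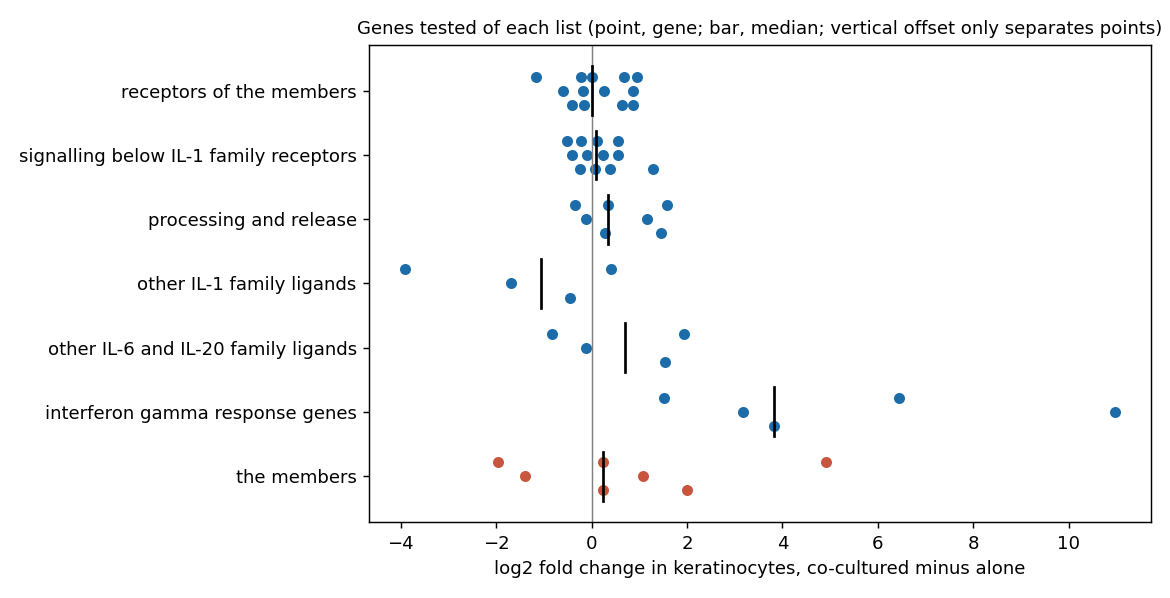
Log2 fold change between co-cultured keratinocytes and keratinocytes alone (horizontal axis) of the tested genes of 6 lists and of the 7 members tested, 1 row per list. Each point is a gene, bars are medians, and the vertical offset only separates points. The interferon-γ response genes lie to the right with a median of 3.83, the receptors and signalling genes lie around 0, and the members spread from -1.97 to 4.92.

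The genes whose levels ran most alike with a member over the 10 libraries were found by Pearson's r of log2(RPKM + 1) among the 8744 genes that reached a mean of 5 RPKM in at least 1 group. This is a description, in which keratinocyte and T-cell libraries form separate clusters that all such genes share. For Il18bp these were Phf11d (0.967), Ube2l6 (0.947) and Oasl2 (0.942), and for Il33 Thbd (0.999), Muc15 (0.999) and 4833423E24Rik (0.999). For Il18 they were Ephb6 (0.956), Atox1 (0.955) and Mapk3 (0.944), and for Il24 Pi4k2b (0.976), Mrfap1 (0.967) and Slc35b1 (0.967). For Tslp they were Acta1 (0.996), Vsnl1 (0.996) and Slc10a6 (0.995), and for Il1a Wfdc2 (0.994), Actr1a (0.992) and Rgs12 (0.991). For Il1rn they were Msmo1 (0.986), Smad5 (0.986) and Shoc2 (0.984), and for Il1b Lilrb4 (0.972), Arv1 (0.949) and Zfp830 (0.941). Il6 reached 1 RPKM in no group and was left out.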

How the data were processed

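Libraries from poly(A) RNA (NEBNext Ultra II kit, not stated to keep the strand) of 10 samples were sequenced as single reads, and the authors aligned them to GRCm38 with the CLC Genomics Workbench at its default settings. The authors deposited per library a table with counts of exon reads per gene, without normalization, and with RPKM values, which the authors scaled to exon length and mapped reads. Groups follow the labels, and so do replicate numbers, except for T cells in keratinocyte medium and in co-culture, which were only numbered to name them. The 9 genes, the lists and the motifs were chosen with earlier results of these data known. Of the lists, 1 gene is not reported here.

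Exon reads were tested by glmQLFit and glmQLFTest of edgeR 4.0.16 (R 4.3.3), after filterByExpr and TMM scaling, with p-values adjusted by Benjamini-Hochberg over all genes tested and called at an adjusted p under 0.05. Keratinocytes (4 libraries) and T cells (6 libraries) were fitted apart, comparisons between the cell types with all 10 libraries and the interaction with 8. Standard errors come from the fit. Libraries of a group differed beyond sampling noise (chi-square per degree of freedom 89.1 to 199). Exon reads per library numbered 12864931 to 18019609, and since reads are not independent molecules, limits from counts cover counting error only. RPKM served for levels and for folds of means. Named were all members, at most the 4 largest genes of a list by RPKM or fold change, and the 3 genes most alike. As alternatives DESeq2 1.42.0, limma 3.58.1 with a pseudocount of 1 or 0.1 RPKM, scaling by library size, no filter, a filter of 10 counts in every library, uniquely mapped reads, all 10 libraries together, a replicate block with and without removal of the length trend, and omission of each library were run. The fits were tested on simulated data. Coordinates are those of the deposited tables and overlaps those of GENCODE vM21. Tables and plots were made with Python 3.11.15, numpy 2.4.6, pandas 2.3.3 and matplotlib 3.10.9.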

Additional observations from a re-analysis of the deposited data

Results flagged for a closer look

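The difference in Il18bp between co-cultured cells and their controls was not the same in both cell types. The controls are unlike, since keratinocytes alone are not known to have received the medium of the T cells. In keratinocytes Il18bp was at 0.348 and 0.408 RPKM alone but at 15.9 and 6.41 RPKM after co-culture, and in T cells at 2.01 and 1.63 RPKM in keratinocyte medium but at 1.11 and 1.14 RPKM after co-culture. In T cells alone the difference did not pass (log2 fold change -0.63, standard error 0.76, adjusted p = 1 by edgeR and DESeq2), and groups that do not overlap were found there for 26.3% of all genes. The interaction, 5.52 on the log2 scale with a standard error of 0.71, passed edgeR's test with an adjusted p of 0.0239. Over 13 alternatives the adjusted p ranged from 6.46e-09 to 0.13, and 6 of them kept the call. The cause was not tested. Groups of 2 libraries are too small for a search for single libraries that stand apart.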

How the results depend on the processing

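Log2 fold changes of the 9 genes kept their direction and their side of the threshold in 574 of the values under alternatives, moved past the threshold in 35, lost it in 15 and turned their sign in 17. Of the 9 genes, 0 were called between the keratinocyte groups, but 2 by DESeq2, 1 without a filter, and from 0 to 2 when each library was left out (2 without replicate 1 and 1 without replicate 2 of co-cultured keratinocytes). For T cells in keratinocyte medium against activated T cells, 0 were called, but 3 by DESeq2, 3 without a filter, 1 with 10 counts in every library, 3 and 4 by limma with pseudocounts of 1 and 0.1, 2 with all 10 libraries, and from 0 to 1 with each library left out. For co-cultured against activated T cells 0 were called, but 1 by DESeq2, 1 and 2 by limma with pseudocounts of 1 and 0.1, and 1 with all 10 libraries. With 10 counts in every library only 2 of the 9 genes were left in fits with T cells, so that the calls between cell types numbered 1 in place of 4 (keratinocytes alone) and 1 in place of 6 (co-cultured), and that of the interaction 0 in place of 1. With each library left out, calls between the co-cultured cell types numbered from 3 to 5 and those of the interaction from 0 to 1. Among all genes, calls between the keratinocyte groups numbered 0, but 88 higher and 98 lower by DESeq2, 107 higher and 1057 lower without replicate 1 and 21 higher without replicate 2 of co-cultured keratinocytes. By DESeq2 861 genes were higher and 1086 lower in T cells in keratinocyte medium than in activated T cells (275 and 501 by edgeR), and 1134 higher and 1234 lower in co-cultured than in activated T cells (544 and 678 by edgeR). Scaling by library size moved the median of all genes from -0.01 to -0.17 between co-cultured and activated T cells and turned Il18bp there to -0.10.

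With each library left out, values of low or variable genes turned their sign. In keratinocytes Tslp ranged from -1.16 to 1.22 and Il1rn from -0.11 to 0.48. Against activated T cells, Il1a ranged from -0.30 to 6.63 in keratinocyte medium and from -0.66 to 7.10 in co-culture, and Il18bp from -0.63 to 1.44 in co-culture. Between co-cultured T cells and those in keratinocyte medium, Il33 ranged from -0.30 to 6.94, Il1a from -1.33 to 1.25 and Il6 from -6.49 to 6.01. Il6 ranged from -6.14 to 4.20 between the co-cultured cell types, and Il1a from -0.46 to 2.37 in the interaction. The cause was not tested.

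The replicate numbers of the keratinocyte libraries are in the labels, but what they share is not stated. Deviations of same-numbered libraries from their group mean had a Pearson's r of 0.528 over 12515 genes. With the number as a replicate block 0 of the 9 genes were called (Il18bp 4.82, adjusted p = 0.0752, edgeR) and 2 of all genes. With the block and the length trend removed 4 were called (Il18bp, Il24, Il18 and Il33), beside 142 genes higher and 190 lower, and Tslp was at -0.24.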
